A study of Rattus norvegicus with 4 samples.

Results

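The mechanistic target of rapamycin (mTOR) complexes and the TSC-Rheb switch that feeds them were followed at the transcript level in cultured Schwann cells (SCs), the glia of peripheral nerve, after expression of the Egr2 promoter antisense RNA (Egr2-AS). The genes were 10 by name: Mtor, Rptor, Rictor, Mlst8, Akt1s1, Deptor, Mapkap1, Tsc1, Tsc2 and Rheb. Of these, 8 have a row among the 17949 genes of the count table and all 8 passed the low-count limit that left 12446 genes to be tested. Rictor and Deptor have no row under their symbol or a synonym in RefSeq and were not analysed here. Primary rat SCs from sciatic nerve were infected for 48 h with a lentivirus carrying the Egr2-AS (Lenti-AS, n = 2) or with a control virus of the same backbone that expresses GFP (Lenti-GFP, n = 2). The vector with the Egr2-AS has a red fluorescent reporter in place of the green one, so the groups also differ in reporter, and the share of infected cells is not given in the sources used here. Both groups were grown in 10% serum with 4 µM forskolin and 5 ng/ml heregulin-β1, an ErbB ligand that itself signals to mTOR through PI3K and Akt, so every value below was taken in stimulated cells. The samples held 74024323 to 96185890 counts each. Replicates are named biological replicates, and the labels tie no culture or day to a replicate number. The p-values of the fits set the difference between groups against the variation between these samples, estimated with information shared across genes.

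mTOR is a kinase that works in a pair of complexes. In mTORC1 it is joined by Raptor (Rptor), which recruits substrates, and the complex drives protein and lipid synthesis, while in mTORC2 it is joined by Rictor and Sin1 (Mapkap1), and the complex phosphorylates Akt. The small GTPase Rheb switches mTORC1 on at the lysosome, and the TSC complex, built on Tsc1 and Tsc2, switches Rheb off until growth factor signaling through Akt relieves it. In SCs, mTORC1 activity is high before myelination, when it holds back Egr2, and it returns after nerve injury.

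The labelled cell type was checked first. Of 12 SC markers, 11 were at 29.6 CPM or more in every sample, and the summed level of the list was 9504 and 9569 CPM (counts per 1000000 of the TMM-scaled library) in Lenti-GFP and 9872 to 10987 CPM in Lenti-AS. The exception was Gap43, at 0.0228 to 0.264 CPM. Macrophage markers summed to 3.27 to 4.34 CPM over the 4 samples. Of the 6 fibroblast markers, which summed to 2694 to 4333 CPM, Dcn, Lum and Thy1 lay between 0 and 0.0321 CPM and Pdgfra between 3.09 and 4.07 CPM. The sum came from the collagens: Col3a1 had 3261 and 2955 CPM in the controls and 2198 and 2400 CPM with the Egr2-AS (edgeR adjusted p = 0.0520), and Col1a1 had 841 and 721 CPM and then 2131 and 290 CPM. The sum of the 4 neuron markers was lower in Lenti-AS, at 149 and 154 CPM against 192 and 201 CPM. Nefl, a neurofilament subunit that made up most of this sum, was called lower (log2 change -0.46, edgeR adjusted p = 0.0303), while Rbfox3 and Snap25 were at 0 to 0.0532 CPM. The 4 endothelial markers summed to 20.6 and 20.5 CPM in the controls and 15.8 and 15.1 CPM with the Egr2-AS, nearly all of it Tek (edgeR adjusted p = 0.0559), with Pecam1, Cdh5 and Kdr at 0 to 0.364 CPM. The part of these shifts in the values below was not tested. Globin genes were high in Lenti-AS 2 alone, with a sum of 3001 CPM against 3.09 to 6.61 CPM in the other samples. The Egr2-AS is not a row of the table, so its level could not be used to check the labels. Egr2 had 49.2 and 42.1 CPM in Lenti-GFP, against 61.2 and 54.0 CPM in Lenti-AS (log2 fold change 0.33, adjusted p = 0.152). The strand setting of the counting is not given, and whether reads of the antisense RNA were counted in Egr2 was not tested. By other measures the study reports lower EGR2 protein and lower accessibility of the Egr2 locus with the Egr2-AS.

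The study reports higher AP-1 binding scores at contact points of distal elements with the Mtor promoter. It also names EGR2 as a target and YY1 as a binding partner of the Egr2-AS. The sequence before the start of the genes, which does not cover those distal elements, was examined for motifs of these factors. The E-box CACGTG, which is read by TFEB, TFE3 and MYC, was examined as well. RefSeq windows of the GRCr8 assembly, from 250 bases before to 50 after the start, were found for 8 of the 10 genes (not Rptor or Deptor). On either strand, AP-1 (TGANTCA) was in 0 of the 8 windows and in 7.33% of all 33469 windows, EGR (GCGNGGGCG) in 1, that of Rictor, against 4.98%, YY1 (AANATGGC) in 2, those of Akt1s1 and Tsc1, against 6.96%, and the E-box in 2, those of Akt1s1 and Rheb, against 6.42%. Among the 9937 windows of genes tested here the shares were 5.07% for AP-1, 9.76% for EGR, 9.73% for YY1 and 8.91% for the E-box. A match is only a run of letters, and its absence here says nothing on factors bound elsewhere. The 250 bases before the start are shown for Mtor, which held none of the 4 motifs, and for the genes with an E-box, which is in capitals and begins 189 bases before the start of Akt1s1 and 86 bases before that of Rheb. The windows are chr5:164167735-164167984, chr1:104469586-104469835 and chr4:11013133-11013382, all on the plus strand.
Mtor: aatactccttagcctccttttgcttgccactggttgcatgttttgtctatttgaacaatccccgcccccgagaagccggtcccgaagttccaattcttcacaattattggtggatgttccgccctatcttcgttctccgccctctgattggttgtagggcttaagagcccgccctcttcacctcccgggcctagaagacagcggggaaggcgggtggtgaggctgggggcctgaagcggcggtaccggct
Akt1s1: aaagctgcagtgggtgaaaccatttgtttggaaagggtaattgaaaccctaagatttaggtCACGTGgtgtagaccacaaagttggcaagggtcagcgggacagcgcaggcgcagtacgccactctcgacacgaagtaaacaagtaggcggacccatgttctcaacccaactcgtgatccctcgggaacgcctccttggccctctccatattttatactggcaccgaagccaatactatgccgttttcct
Rheb: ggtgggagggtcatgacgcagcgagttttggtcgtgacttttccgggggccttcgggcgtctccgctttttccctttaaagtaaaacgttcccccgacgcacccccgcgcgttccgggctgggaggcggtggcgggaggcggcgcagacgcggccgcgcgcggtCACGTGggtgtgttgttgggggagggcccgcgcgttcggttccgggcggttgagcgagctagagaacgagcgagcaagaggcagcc

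The study called genes with DESeq2 at an adjusted p under 0.05 and a change of 1.3-fold. Here the same cut-offs were applied first with edgeR's quasi-likelihood test (Benjamini-Hochberg over all genes tested), comparing Lenti-AS with Lenti-GFP. Of the 8 genes, 0 passed both cut-offs in edgeR. Among all genes tested 1.98% were called, 1.31% as higher in Lenti-AS and 0.667% as lower. At an unadjusted p under 0.05 there were 6 of the 8, Mtor, Rptor, Akt1s1 and Tsc1 with higher and Mapkap1 and Rheb with lower values in Lenti-AS, where 21.8% of all genes passed (12.5% with higher and 9.37% with lower values). In the same 6 genes the groups did not overlap, which held for 54.9% of all genes (27.7% with both Lenti-AS samples above and 27.2% with both below). The median log2 fold change of the 8 genes was 0.28, against 0.01 over all genes tested. With the same cut-offs DESeq2, the method of the study, called 1 of the 8, Rptor, and 627 of all 12446 genes tested. The likelihood ratio test and limma-voom called 0 of the 8, and 521 and 235 of all genes tested.

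**Figure D1:**
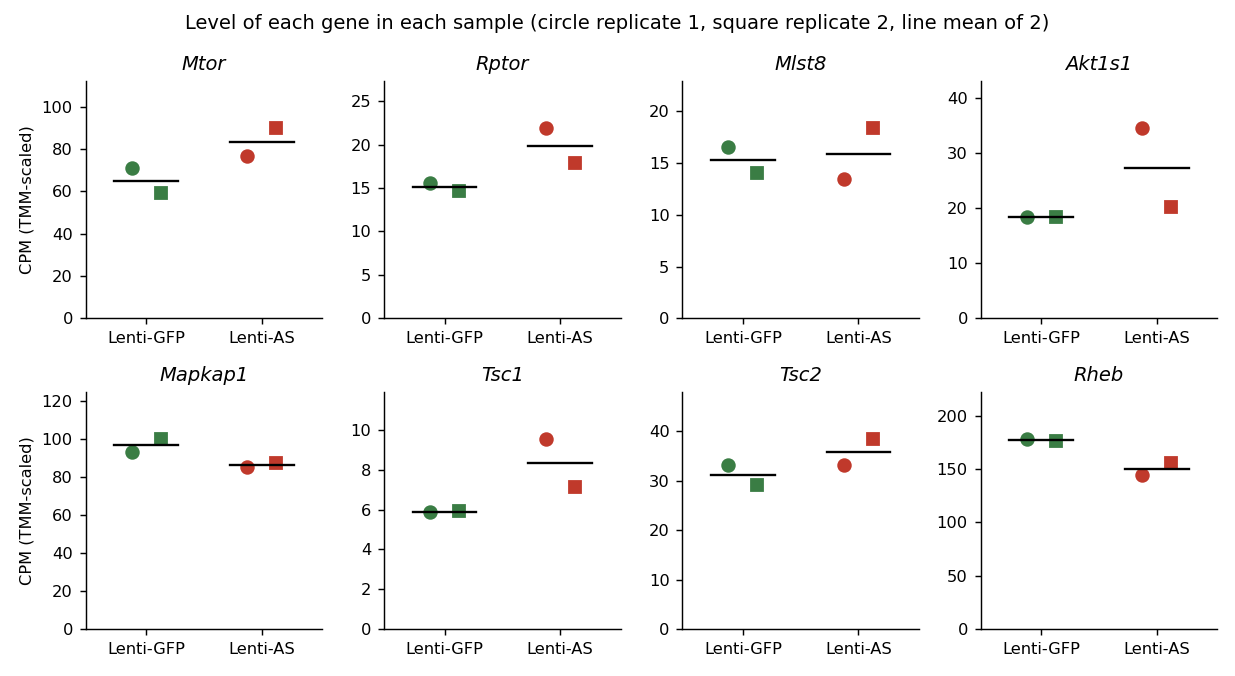
Level of each gene in CPM (TMM-scaled, linear axis from 0) in the 2 Lenti-GFP (green) and 2 Lenti-AS (red) samples; circles are replicate 1, squares replicate 2, and lines the mean of 2. Rheb is lower in both Lenti-AS samples (144 and 156 CPM against 178 and 176 CPM), while the Akt1s1 mean is lifted by Lenti-AS 1 (34.4 CPM).

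Of the genes of mTORC1, Mtor, the kinase shared by both complexes, had 71.0 and 59.2 CPM in Lenti-GFP, against 76.5 and 89.8 CPM in Lenti-AS, so the groups were closer to each other than the samples within either. Rptor had 15.6 and 14.6 CPM in Lenti-GFP, against 21.9 and 17.9 CPM in Lenti-AS. Both Lenti-AS samples lay above both controls, with a gap of 2.33 CPM between the groups, where the controls were 0.953 CPM apart and the Lenti-AS pair 3.97 CPM apart. The fitted log2 fold change of Rptor was 0.40 (standard error 0.11), a 1.32-fold difference with a 95% interval of 1.09 to 1.60, and the adjusted p was 0.130 with edgeR and 0.0423 with DESeq2. For Mtor the corresponding interval was 1.04 to 1.56-fold (adjusted p = 0.170 with edgeR and 0.0348 with DESeq2). DESeq2's log2 fold change of 0.35 was under the 0.38 that 1.3-fold requires. The study, which used DESeq2, reports a moderate but significant increase of the Mtor transcript.

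Akt1s1 encodes PRAS40, an Akt substrate that restrains mTORC1 until it is phosphorylated. Its level was 18.4 CPM in each Lenti-GFP sample and 34.4 and 20.2 CPM in Lenti-AS 1 and 2. The groups did not overlap, yet the 2 Lenti-AS samples differed 1.70-fold, and 8.23% of all genes tested had a larger ratio between these samples. Its log2 fold change was 0.57 (standard error 0.23, 95% interval 1.00 to 2.20-fold, edgeR adjusted p = 0.227), and without Lenti-AS 1 it was 0.14. Mlst8, a subunit of both complexes that binds the kinase domain, had 16.6 and 14.1 CPM in Lenti-GFP, against 13.5 and 18.4 CPM in Lenti-AS. The groups of Mlst8 overlapped fully, and its interval of 0.786 to 1.37-fold left changes of 1.3-fold in the upward direction possible (log2 fold change 0.05, edgeR adjusted p = 0.874).

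Of the 10 genes, Rictor and Mapkap1 are particular to mTORC2, and only Mapkap1 has a row. It encodes Sin1, which positions the complex on its substrates. Its level was 93.4 and 100 CPM in Lenti-GFP, against 85.2 and 87.5 CPM in Lenti-AS. Each Lenti-AS sample was below the controls, by 5.83 CPM between the nearest samples, while the controls were 6.66 CPM apart. The log2 fold change was -0.16 (standard error 0.06, edgeR adjusted p = 0.222), and the 95% interval of 0.800 to 0.997-fold lay within a change of 1.3-fold in either direction.

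Rheb, the direct activator of mTORC1, had the smallest adjusted p of the 8. It had 178 and 176 CPM in Lenti-GFP, against 144 and 156 CPM in Lenti-AS, from 11714 to 16721 counts per sample. The gap between the groups was 20.6 CPM, while the controls were 1.66 CPM apart and the Lenti-AS pair 11.7 CPM apart. The level in Lenti-AS was 1.18-fold lower (log2 change -0.24, standard error 0.06, 95% interval 0.765 to 0.937-fold), with an adjusted p of 0.104 in edgeR and 0.0127 in DESeq2. The size was under the 1.3-fold cut-off in both, and 6.68% of all genes had a smaller p in edgeR.

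The TSC subunits, which inhibit Rheb, both had higher fitted levels in Lenti-AS. Tsc1, the subunit that stabilises the complex, had 5.86 and 5.93 CPM in Lenti-GFP, against 9.55 and 7.14 CPM in Lenti-AS. All Lenti-AS values were above the controls, but they were 2.41 CPM apart, against 0.0697 CPM between the controls (log2 fold change 0.50, standard error 0.17, 95% interval 1.07 to 1.88-fold, edgeR adjusted p = 0.167). Tsc1 was the least counted of the genes, with 537 to 837 counts, which gives a counting error of up to 4.32% per sample. Tsc2, the subunit with GTPase-activating function, had 33.2 and 29.1 CPM in Lenti-GFP, against 33.1 and 38.4 CPM in Lenti-AS. Its groups overlapped by Lenti-AS 1 (log2 fold change 0.20, standard error 0.10, 95% interval 0.965 to 1.37-fold, edgeR adjusted p = 0.312). In the RefSeq annotation of GRCr8 Tsc2 overlaps Pkd1, which had a log2 fold change of 0.04 (edgeR adjusted p = 0.870). Mtor, Mlst8 and Mapkap1 also overlap other annotated genes, among them Angptl7 (Mtor) and Bricd5 (Mlst8), none of which was tested here. Reads in such overlaps cannot be assigned without strand.

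**Figure D2:**
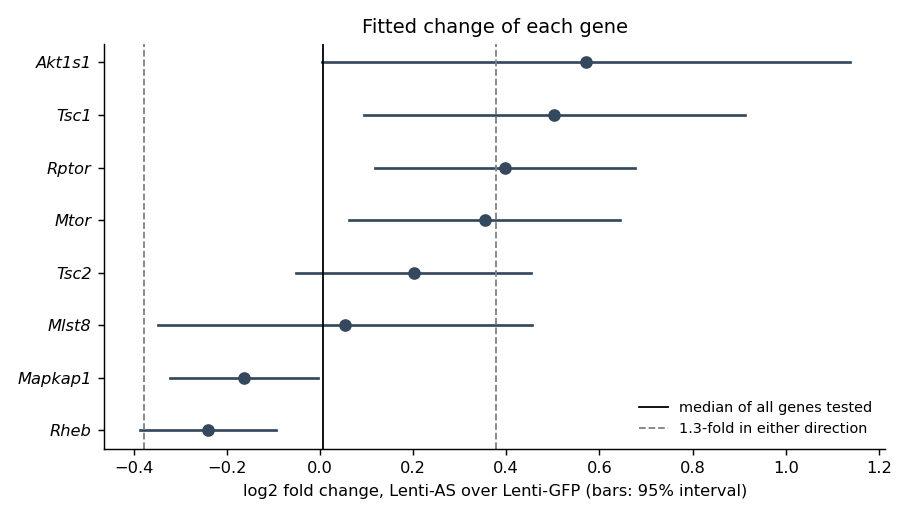
Fitted log2 fold change of Lenti-AS over Lenti-GFP for the 8 genes (points) with the 95% interval of the edgeR fit (bars), the median of all genes tested (solid line, 0.01) and a change of 1.3-fold (dashed lines). Akt1s1 at 0.57 has the widest interval, and Mapkap1 at -0.16 has an interval that stays inside the dashed lines.

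Which Lenti-AS sample was higher differed from gene to gene. Akt1s1, Tsc1 and Rptor were 1.70, 1.34 and 1.22 times higher in Lenti-AS 1 than in Lenti-AS 2. Mtor, Tsc2, Mlst8, Rheb and Mapkap1 were at 0.853, 0.863, 0.736, 0.925 and 0.973 of their Lenti-AS 2 level in Lenti-AS 1. The median gene differed 1.10-fold between these samples. The size of the fitted changes depended on which Lenti-AS library was left out. Without Lenti-AS 2 the log2 fold changes of Akt1s1, Tsc1 and Rptor were 0.90, 0.70 and 0.53. Those of Mtor and Tsc2 were 0.23 and 0.09. Without Lenti-AS 1 the log2 fold changes of Akt1s1, Tsc1 and Rptor were 0.14, 0.28 and 0.25. Those of Mtor and Tsc2 were 0.46 and 0.30. In such fits the lone sample of a group is assumed to vary like the pair of the other group. With a control left out, Mtor ran from 0.23 without Lenti-GFP 2 to 0.49 without Lenti-GFP 1. Rheb had a negative log2 fold change in each of the 4 fits, from -0.19 to -0.30.

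To compare the genes without any scaling of libraries, ratios of counts within a sample were taken for 9 pairs, of which 4 needed Rictor or Deptor and could not be formed. Gene lengths are not divided out, so only the difference of a ratio between samples can be read. The ratio of Rheb to Tsc2, activator to inhibitor, was 5.37 and 6.06 in Lenti-GFP and 4.35 and 4.06 in Lenti-AS. It was lower in both Lenti-AS samples, by 0.44 on the log2 scale between the group means, with 0.30 between the nearest samples against 0.18 within Lenti-GFP and 0.10 within Lenti-AS. The ratio of Mlst8 to Mtor was 0.233 and 0.238 in Lenti-GFP and 0.176 and 0.205 in Lenti-AS, a difference of -0.31 on the log2 scale, and its groups did not overlap. For both ratios the exact two-sided permutation test gave p = 0.333, the smallest that 2 samples against 2 allow (0.833 adjusted over the 5 pairs). The ratios of Rptor to Mtor, Akt1s1 to Mtor and Tsc1 to Tsc2 overlapped between the groups, with mean differences of 0.04, 0.16 and 0.29 on the log2 scale (exact permutation p = 1, 1 and 0.667, all 1 after adjustment). In these 3 ratios Lenti-AS 1 was the highest of the 4 samples.

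**Figure D3:**
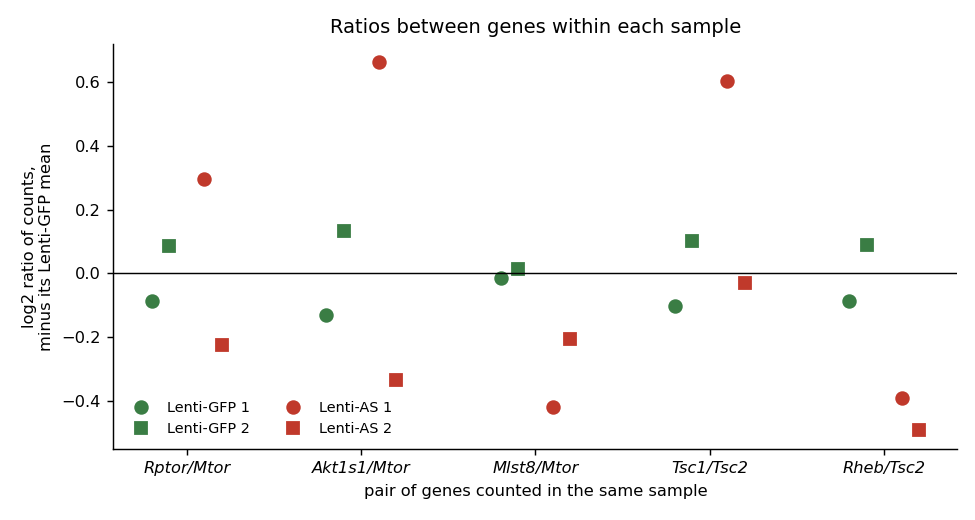
Log2 ratio of the counts of a pair of genes in each sample, minus the mean of the ratio in Lenti-GFP (line at 0), for 5 pairs; green is Lenti-GFP, red Lenti-AS, circles replicate 1 and squares replicate 2. Both Lenti-AS samples lie below both Lenti-GFP samples for Mlst8/Mtor and Rheb/Tsc2, and on either side of them for Rptor/Mtor and Akt1s1/Mtor.

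Other genes of the pathway were taken from 4 lists by role, with 88 genes tested. Of these, the edgeR test called 4 higher in Lenti-AS and 0 lower, and DESeq2 called 9 higher and 0 lower. At an unadjusted p under 0.05 in edgeR, 24 had higher and 9 had lower values. Over all genes tested the edgeR test called 1.31% higher and 0.667% lower, and 12.5% had higher and 9.37% lower values at the unadjusted p. DESeq2 called 488 of all 12446 genes higher and 139 lower. With the replicate number added to the edgeR fit as a block, 0 genes of these lists were called higher, and 3 of all genes were. The median log2 fold change of the 88 genes was 0.11. All 4 edgeR calls lay in the lists for amino acid and lysosome inputs and for substrates and outputs.

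Of the 10 partners and assembly factors of the complexes, 0 were called in either direction (2 had an unadjusted p under 0.05, against 21.8% of all genes), and the median log2 fold change was -0.13. The smallest p belonged to Ruvbl1, an ATPase of the machinery that assembles mTOR-like kinases, with 63.2 and 65.0 CPM in the controls and 54.9 and 56.4 CPM with the Egr2-AS (edgeR adjusted p = 0.165). Prr5l, which binds mTORC2, had 6.74 and 8.07 CPM in the controls and 5.64 and 5.49 CPM with the Egr2-AS (edgeR adjusted p = 0.176). Ruvbl2, the partner of Ruvbl1, had 91.0 and 88.4 CPM in the controls and 76.2 and 83.7 CPM with the Egr2-AS (edgeR adjusted p = 0.247). In each of the 3 both Lenti-AS samples were below both controls, as in 27.2% of all genes.

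Of the 28 growth factor and energy inputs, 0 were called, 11 (9 higher, 2 lower) had an unadjusted p under 0.05, where 21.8% of all genes did, and the median log2 fold change was 0.15. Pik3r1, the regulatory subunit of PI3K, came closest, with 55.6 and 55.4 CPM in Lenti-GFP, against 82.5 and 72.7 CPM in Lenti-AS (0.48 on the log2 scale, standard error 0.08, edgeR adjusted p = 0.0506). The adaptor Irs2 had 190 and 177 CPM in the controls and 244 and 227 CPM with the Egr2-AS (edgeR adjusted p = 0.0577). The heregulin receptor Erbb3 had 477 and 448 CPM in the controls and 550 and 562 CPM with the Egr2-AS (edgeR adjusted p = 0.0788). The groups of these 3 genes did not overlap, as in 54.9% of all genes and in 19 of the 28.

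Among 28 amino acid and lysosome inputs, Sesn2 and Slc7a5 were called higher and 0 genes lower (median log2 fold change 0.16). At an unadjusted p under 0.05 in edgeR, 9 had higher and 4 had lower values, where 12.5% and 9.37% of all genes did. Sesn2, a leucine sensor that restrains mTORC1, had 20.9 and 19.8 CPM in Lenti-GFP, against 33.5 and 32.4 CPM in Lenti-AS (0.69 on the log2 scale, standard error 0.07, edgeR adjusted p = 0.0191). Slc7a5, the light chain of the leucine transporter, went from 42.8 and 38.0 CPM to 58.2 and 56.5 CPM (log2 fold change 0.50, standard error 0.08, edgeR adjusted p = 0.0465). Sec13, a subunit of the GATOR2 complex, had 144 and 143 CPM in Lenti-GFP, against 119 and 118 CPM in Lenti-AS (1.21-fold lower, adjusted p = 0.0594).

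Among 22 substrates and outputs, Prkca and Eef2k were called higher and 0 genes lower (median log2 fold change 0.13). At an unadjusted p under 0.05 in edgeR, 6 had higher and 1 had lower values, where 12.5% and 9.37% of all genes did. Prkca, a protein kinase C whose stability depends on mTORC2, went from 67.4 and 73.2 CPM to 107 and 108 CPM (log2 fold change 0.61, standard error 0.07, edgeR adjusted p = 0.0243). Eef2k, the kinase that slows translation elongation and is inhibited downstream of mTORC1, went from 20.3 and 19.1 CPM to 26.6 and 26.4 CPM (log2 fold change 0.43, standard error 0.07, edgeR adjusted p = 0.0463). Lpin1, a regulator of lipid synthesis, had 9.72 and 10.2 CPM in Lenti-GFP, against 16.7 and 13.8 CPM in Lenti-AS (adjusted p = 0.0644).

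**Figure D4:**
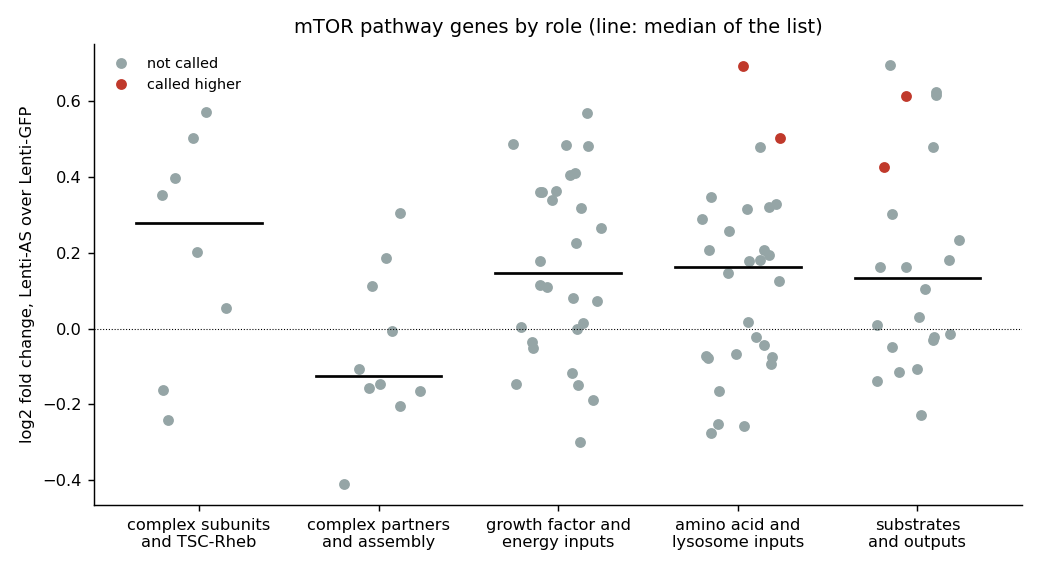
Log2 fold change of Lenti-AS over Lenti-GFP for each gene tested (points), by role in the pathway, with the median of each list (lines); red points are genes called higher. The 4 called genes, from 0.43 to 0.69, are in the 2 lists on the right, and the 8 complex and TSC-Rheb genes span -0.24 to 0.57 with none called.

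In a list of 7 proliferation genes, all 7 had both Lenti-AS samples above both controls, as did 27.7% of all genes. The list summed to 1115 and 1170 CPM in Lenti-GFP, compared with 1549 and 1512 CPM in Lenti-AS. Mki67, Top2a, Ccna2 and Cdk1 were called higher by edgeR, where 1.31% of all genes were. None of the 7 was at 0 in any sample. The part of this shift in the values of the mTOR and TSC-Rheb genes was not tested. In bulk RNA, a different share of cells and a different amount of RNA per cell cannot be told apart.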

How the data were processed

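RNA-seq of 4 samples of primary rat SCs was analysed. Paired-end reads of 50 bp were aligned by the authors to rn6 (hisat2 per the paper, while the tools named per the labels are GSNAP and featureCounts), and the deposited values are whole-number read counts per gene over RefSeq exons from featureCounts, not normalized. Versions and the strand setting are not given in the sources used here. Of 17949 genes, 1623 had 0 counts, and 1 row that repeats the header was dropped. A gene was tested if 2 or more samples had 10 or more counts, using edgeR 4.0.16 (TMM factors, glmQLFit, glmQLFTest) under R 4.3.3. The standard error was taken from the F statistic and the 95% interval from the t quantile with the total degrees of freedom of the fit. DESeq2 1.42.0, the method of the study, was run as an alternative. Others were limma-voom (limma 3.58.1), the likelihood ratio test, the newer quasi-likelihood fit, other factors and filters, a replicate block and leaving out each sample. Sampling noise alone, for which the chi-square per gene is near 1, was exceeded between replicates (32.4 in Lenti-GFP, 103 in Lenti-AS). Beyond the 10 genes, those named are the called genes and the 3 smallest p-values of each pathway list, with Egr2 and markers. The genes and lists were chosen with earlier results of these data known, so no p was adjusted over a list alone. Lengths were not used, and levels of different genes were not compared. Motifs and names came from RefSeq (GRCr8).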

Additional observations from a re-analysis of the deposited data

How the results depend on the processing

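The count of the 8 genes called higher was 0 in the edgeR fit and 1 with DESeq2 (Rptor), and 0 to 3 with 1 sample left out in turn; the count called lower was 0 in every fit. DESeq2 alone of the alternatives on all samples gave adjusted p-values under 0.05, for Mtor, Rptor and Rheb. The 4 other pathway lists had 4 genes called higher, against 9 with DESeq2, 7 with the likelihood ratio test and 0 with the replicate block, 0 to 21 with 1 sample left out, and 0 to 1 lower. Over all genes, 163 higher and 83 lower became 488 and 139 with DESeq2, 374 and 147 with the likelihood ratio test, 3 and 14 with the replicate block, and 0 to 1266 and 1 to 271 with 1 sample left out. The labels tie no culture or day to a replicate number, and the deviations of samples with the same number had a correlation of -0.0123 across genes. The block called none of the 8 genes (adjusted p from 0.172 to 0.920), and leaves fewer residual degrees of freedom. Mlst8 changed sign without Lenti-GFP 2 (-0.06) and without Lenti-AS 2 (-0.18), and reached 0.26 without Lenti-AS 1. The other 7 genes kept their direction under the scalings, filters, tests and left-out samples tried. The median of the 8 genes was 0.16 to 0.37 with 1 sample left out and 0.31 with library totals, which moved the median of all genes to 0.04. The Rheb to Tsc2 ratio stayed between -0.35 and -0.53 and Mlst8 to Mtor between -0.21 and -0.42 on the log2 scale with 1 sample left out, while Rptor to Mtor ran from -0.22 to 0.30, Akt1s1 to Mtor from -0.33 to 0.66 and Tsc1 to Tsc2 from -0.03 to 0.60. Without Lenti-AS 1 these 3 were negative. The cause of the differences between fits was not tested.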

Other observations

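Mtor, Mlst8, Tsc2 and Rheb differed between the samples of a group in the same order. In Lenti-GFP, replicate 1 over replicate 2 was 1.20 for Mtor, 1.18 for Mlst8, 1.14 for Tsc2 and 1.01 for Rheb. In Lenti-AS replicate 1 was lower than replicate 2 for each, at 0.853, 0.736, 0.863 and 0.925. Akt1s1, Rheb and Tsc1 had nearly equal levels in the Lenti-GFP samples, with ratios of 1.00, 1.01 and 0.988, where the median gene differed 1.06-fold. This pattern was noticed after the values were seen and was not tested. The share of all genes with this order was not counted.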
